A study of Mus musculus with 22 samples.

Results

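The wall of brain blood vessels and the membranes around the brain are represented here by 32 genes, of 23037 genes with at least 1 matched transcript in the deposited table. They are 16 genes of endothelial cells, 8 of mural cells, 5 of fibroblasts of the meninges and vessels, and 3 made by several cells of the wall. They were listed as known markers of these cells and looked up by symbol. The rule uses no measured value, but the list was made with earlier results of these data known. All 32 were found. They were followed across 3 brain regions and between wild-type (WT) and circTulp4-deficient (CD) mice.

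Hippocampus (HPC), cortex (Cx) and cerebellum (CRBM) of 8 mice were profiled by 3′ RNA-seq in 22 libraries, with 3 WT and 4 CD hippocampi, 4 WT and 4 CD cortices, and 4 WT and 3 CD cerebella. All mice were C57BL/6. CD mice carry a CRISPR-Cas9 change of AG to TC at the splice acceptor used by circTulp4, a circular RNA of Tulp4, and the line goes back to 1 mosaic founder. By the description of the line, the edit lowers circTulp4 in the brain and does not remove it, and a circular form is still made from another splice acceptor. WT mice carry no edit, and age and sex are not given in the labels. Each library is 1 region of 1 mouse, and libraries are named below by the mouse number of their labels. The circular junction is not counted by reads at 3′ ends, so the effect of the edit on circTulp4 could not be followed here. The paper reports that linear Tulp4 RNA, by RT-qPCR, and Tulp4 protein, by Western blot, did not differ in the brain between genotypes. Counts at 3′ ends of 1 transcript are a different measure. In these libraries, estimates of Tulp4 were lower in CD mice by 0.54 in hippocampus, 1.01 in cortex and 0.48 in cerebellum on the log2 scale. None was called (FDR = 0.997, 1 and 0.981, edgeR quasi-likelihood test). For this gene alone, the unadjusted p in cortex was 0.00113 (edgeR). Over the regions together the estimate was -0.65 ± 0.18 (unadjusted p = 0.00103, limma), also not called after adjustment.

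Endothelial cells line the vessel and in the brain are sealed by tight junctions, so that transport across them is controlled by carriers and pumps. Mural cells wrap this tube, pericytes around capillaries and smooth muscle cells around arterioles, and both layers share a basement membrane of laminins and type IV collagen. Fibroblasts lie around larger vessels and in the meninges, and make the fibrillar collagens type I and type III with small proteoglycans. The tissue was bulk tissue, so fewer cells of a type and less RNA per cell cannot be told apart.

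Libraries held 2760846 to 8858940 counts at 1 transcript per gene. Region labels were set against genes of each region by the thresholds given below. In cerebellum, 7 of 7 cerebellum genes were higher than in either other region, and 7 of 7 hippocampus genes were lower than in hippocampus. In cortex, 5 of 6 cortex genes were higher and 5 of 7 hippocampus genes lower than in hippocampus. Of the hippocampus genes, 1 was higher in cortex at an FDR below 0.05. Their summed level was 10425 to 12967 cpm (counts-per-million) in hippocampus and 13026 to 18656 cpm in cortex. The hippocampus libraries differed in choroid plexus RNA: 12 choroid plexus genes summed to 8651 cpm in WT mouse m244 and 4346 cpm in CD mouse m190, against 158 to 1292 cpm in the other 5. The CD hippocampus of mouse m118 had the lowest total of its region, 4025493 counts, and mouse m118 had the highest sum of 9 blood cell genes in each region, 12979 to 14133 cpm.

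A member entered the tests between regions when it reached 5 cpm in at least 2 libraries, and 26 of 32 did: 12 endothelial, 6 mural, 5 fibroblast and 3 shared genes. Those below it were the tight junction gene Cldn5, the VEGF receptor gene Kdr, the efflux pump gene Abcb1a, the TGF-beta co-receptor gene Eng, the PDGF receptor gene Pdgfrb and the smooth muscle gene Tagln, with 136 to 411 counts over all 22 libraries. Tagln had 0 counts in the cerebella of CD mouse m118 and WT mouse m164, where 3 counts, taken as the floor, stand for 0.614 and 0.523 cpm. Emcn in hippocampus and cortex, Col3a1 in hippocampus and Lum in cortex stayed below the filter there, and entered through the other regions. All levels below are in cpm scaled by the trimmed mean method (TMM). Levels are compared within a gene and not between genes.

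Sequences are shown for the 4 genes that were lower in cerebellum, because they show how the genes are arranged and what lies before their starts. Col4a1 and Col4a2, the genes of the paired chains of the main type IV collagen, lie head to head on chromosome 8. In GRCm38, the assembly named mm10 by the authors, Col4a2 runs on the plus strand from 11312805 to 11449287 and Col4a1 on the minus strand from 11198423 to 11312889 in RefSeq. Start sites of the pair in the RefSeq windows are 11312805 for Col4a2 and 11312826 for Col4a1, so that the 22 bases in capitals lie in the first exons of both (chr8:11312801-11312830, plus strand, RefSeq):
Col4a1 and Col4a2 start: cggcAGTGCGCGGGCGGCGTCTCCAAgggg

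Acta2, smooth muscle actin, lies on the minus strand of chromosome 19 from 34240336 to 34255585. Capitals mark a pair of CArG boxes, the kind of element bound by serum response factor, each with 1 of its 6 inner bases outside A and T. They are 40 bases apart, upstream of the start site of the RefSeq window and inside the gene span given above (chr19:34255438-34255467 and chr19:34255388-34255417, minus strand, RefSeq):
Acta2 box 1: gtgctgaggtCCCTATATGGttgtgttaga
Acta2 box 2: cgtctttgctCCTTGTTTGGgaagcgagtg

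Egfl7, a secreted endothelial protein, lies on the plus strand of chromosome 2 from 26581083 to 26592682. A stretch of 249 bases just before the middle one of its 3 RefSeq start sites is shown with the ETS-type core CAGGAA in capitals (chr2:26583615-26583863, plus strand, RefSeq). An intron of Egfl7 from 26591064 to 26591663 holds the hairpin of miR-126a, an endothelial miRNA, on the same strand. Its mature arm is shown with the seed, bases 2 to 8, in capitals (chr2:26591402-26591423). The miRNA itself was not measured by these libraries.
Egfl7 promoter: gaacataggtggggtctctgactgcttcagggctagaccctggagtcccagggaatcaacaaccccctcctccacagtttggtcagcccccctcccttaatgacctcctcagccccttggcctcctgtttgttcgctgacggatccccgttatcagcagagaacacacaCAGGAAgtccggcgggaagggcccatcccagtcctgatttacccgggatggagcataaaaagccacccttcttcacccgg
mmu-miR-126a-3p: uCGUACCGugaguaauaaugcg

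RefSeq windows of 300 bases, 250 before and 50 after a start, were found for 22 of the 32 members and were searched on both strands. Of 32851 such windows, 0.679% held at least 2 CArG boxes with 1 inner base outside A and T, and Acta2 was the 1 member among the 22 that did. A single box of that kind stood in 8.5% of windows and in those of Tek, Kdr, Eng, Egfl7, Acta2 and Col1a2. The intact CArG box stood in 1.63% of windows and in 0 of 22 members. CAGGAA stood in 30.6% of windows and in 8 of 22 members, which were Tek, Itm2a, Eng, Egfl7, Tie1, Emcn, Rgs5 and Abcc9. CCAAT stood in 37.4% of windows and in 6 of 22 members, among them Col4a1 and Col4a2. A member was counted when any of its windows held the motif, and some members have several windows. The shares are per window, so members and shares are not in the same unit. Such matches describe the letters of the window.

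Whether vessel genes differ between regions was asked first. Col4a2, Egfl7 and Acta2 were lower in cerebellum than in hippocampus and cortex by more than 2-fold, and Col4a1 was lower in the same direction by less. The other endothelial and mural members tested, apart from Esam and Emcn, lay within 0.5 of zero on the log2 scale in each pair of regions. The collagen genes Col1a2 and Col3a1 were higher in cerebellum than in hippocampus. In cortex Col1a1 and Col1a2 were higher than in hippocampus, and Lum was lower. Col3a1 stayed below the filter in hippocampus and Lum in cortex, so for these pairs each entered the test only through regions other than its low one. Genes were counted as past the thresholds when they differed more than 2-fold in either direction with an FDR below 0.01, and an FDR below 0.05 at any fold was the second rule.

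Between cerebellum and hippocampus, 4 of 26 members passed the thresholds, 1 higher and 3 lower, where 22.8% of the 11137 genes tested did. The member that was higher, Col3a1, stayed below the filter in hippocampus. At an FDR below 0.05, 9 members differed, 5 higher and 4 lower, against 61.4% of all genes. Between cerebellum and cortex, 3 members passed the thresholds, all lower, against 22.6% of all genes (12.9% lower), and 8 had an FDR below 0.05, against 61.9%. Between cortex and hippocampus, 0 members passed the thresholds, against 8.41% of all genes, and 10 had an FDR below 0.05, 9 higher and 1 lower, against 35.5% (18.0% higher and 17.5% lower). The median absolute log2 fold change of the 26 members was 0.27 between cerebellum and either other region, beside 0.43 over all genes, and 0.26 between cortex and hippocampus, beside 0.23.

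**Figure D1:**
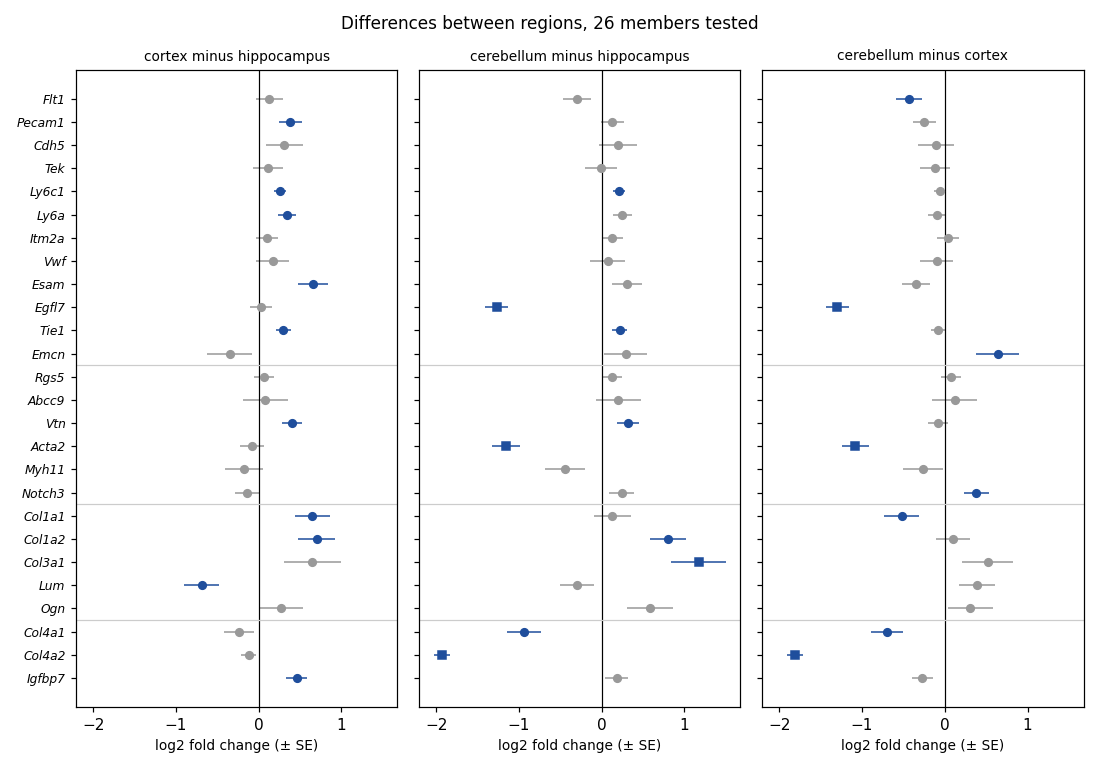
Log2 fold change between regions (x axis, bars are standard errors) of the 26 members tested, one row per gene, with lines between endothelial, mural, fibroblast and shared genes. Squares passed the thresholds, blue circles had an FDR below 0.05 and grey circles did not; Col4a2, Egfl7 and Acta2 lie beyond -1 in both comparisons of the cerebellum.

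Col4a2 showed the widest difference among the members. Its level was 83.6 cpm at the lowest, 96.5 at the median and 106 at the highest over 7 hippocampi, and 65.3, 86.6 and 113 cpm over 8 cortices. Over 7 cerebella it was 21.7, 25.4 and 28.5 cpm. Every cerebellum lay below every library of the other regions. The log2 fold change was -1.93 ± 0.10 (SE) against hippocampus (0.26-fold, FDR = 1.67e-14) and -1.81 ± 0.10 against cortex (0.29-fold, FDR = 3.84e-14, edgeR quasi-likelihood test with Benjamini-Hochberg adjustment). Cortex and hippocampus differed by -0.12 ± 0.09 (FDR = 0.328).

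Col4a1, its head-to-head partner, had a smaller difference. Its lowest, median and highest levels were 8.999, 12.4 and 15.8 cpm in hippocampus, 7.18, 9.65 and 15.3 cpm in cortex, and 4.10, 5.34 and 10.9 cpm in cerebellum. It was lower in cerebellum than in hippocampus of the same mouse in 6 of 6 mice, and than in cortex in 6 of 7, but the ranges of the regions overlapped. The log2 fold change was -0.94 ± 0.20 against hippocampus (FDR = 0.000181) and -0.70 ± 0.19 against cortex (FDR = 0.00296). Against cortex it was -1.12 in WT libraries (FDR = 0.000965) and -0.28 in CD libraries (FDR = 0.437) fitted alone. The count of Col4a2 over that of Col4a1 in the same library was 5.71 to 11.4 in hippocampus (median 7.26), 6.22 to 11.4 in cortex (median 8.57) and 2.57 to 6.06 in cerebellum (median 4.90). This ratio depends on how each 3′ end was read and is a description. An antisense gene, Gm15418, overlaps the 3′ part of Col4a1 over 6081 bases, and strand use in the counting is not stated.

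Igfbp7, a secreted protein of the vessel wall and the third shared gene, did not follow the collagens. Its lowest, median and highest levels were 12.2, 13.8 and 21.1 cpm in hippocampus, 16.02, 18.4 and 25.9 cpm in cortex, and 13.3, 16.2 and 20.3 cpm in cerebellum. It was higher in cortex than in hippocampus by 0.46 ± 0.13 (FDR = 0.0078), in 6 of 7 mice, and the ranges overlapped. The difference was 0.16 in WT libraries alone (FDR = 0.642) and 0.75 in CD libraries alone (FDR = 0.0032).

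**Figure D2:**
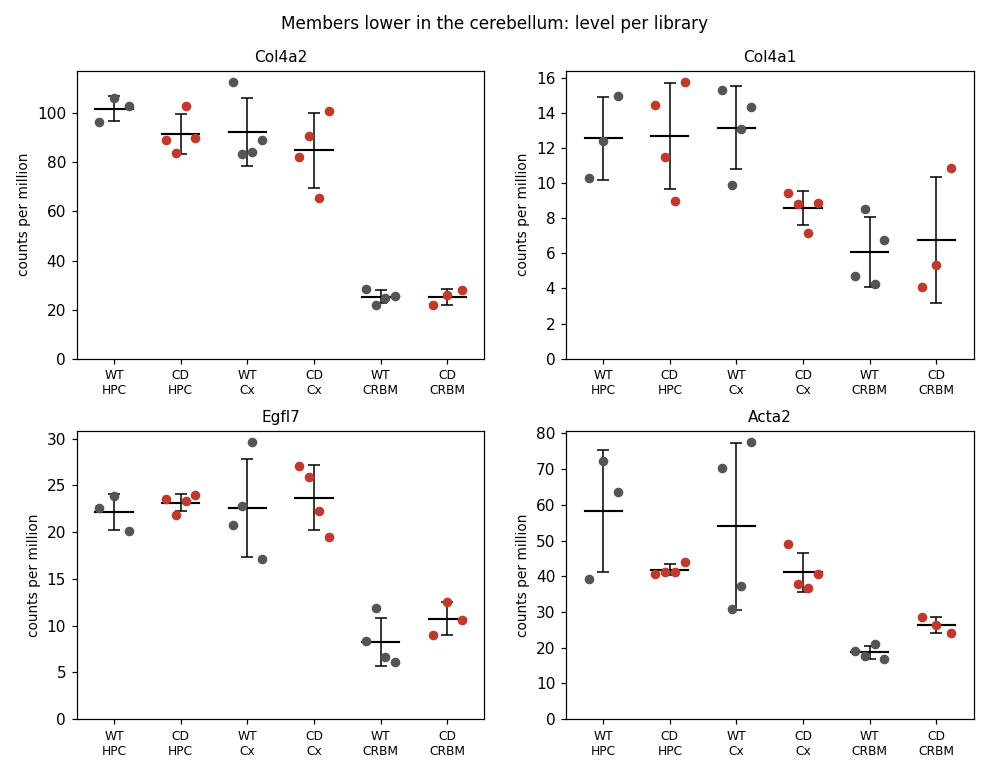
Level in cpm (y axis, from 0) of Col4a2, Col4a1, Egfl7 and Acta2 in each of 22 libraries, by genotype and region on the x axis; each point is a library, wild-type grey and CD red, with the group mean and SD. Cerebella lie below all other libraries for Col4a2, Egfl7 and Acta2 and overlap them for Col4a1.

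Among the endothelial genes, Egfl7 was the one past the thresholds. It had 20.1, 23.3 and 24.0 cpm (lowest, median, highest) in hippocampus and 17.1, 22.5 and 29.6 cpm in cortex. In cerebellum it had 6.10, 9.01 and 12.5 cpm, below every library of the other regions. The log2 fold change was -1.27 ± 0.14 against hippocampus (0.42-fold, FDR = 1.67e-08) and -1.30 ± 0.14 against cortex (0.41-fold, FDR = 7.66e-09). It was -1.43 and -1.47 in WT libraries alone, and -1.10 and -1.13 in CD libraries alone. A second annotated gene on the same strand, Gm20532, overlaps 6482 bases at the 3′ side of Egfl7, so reads of the pair cannot be told apart.

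Esam, an adhesion molecule of endothelial junctions, separated cortex from hippocampus. It had 3.54, 7.32 and 7.56 cpm in hippocampus, 8.09, 10.8 and 14.4 cpm in cortex, and 5.74, 8.05 and 12.2 cpm in cerebellum. It was higher in cortex in 7 of 7 mice without overlap, by 0.66 ± 0.18 (1.58-fold, FDR = 0.00441). Without the hippocampus of CD mouse m118, which held the lowest value, the difference was 0.57 (FDR = 0.00897). It was 0.68 in WT libraries alone (FDR = 0.0426) and 0.63 in CD libraries alone (FDR = 0.0863).

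The other endothelial members at an FDR below 0.05 between cortex and hippocampus were all higher in cortex by smaller amounts. Ly6c1, a surface protein of brain endothelium, differed by 0.26 ± 0.07 (FDR = 0.00496) and its neighbour Ly6a by 0.34 ± 0.11 (FDR = 0.0186). Reads of Ly6c1 may be shared with its near copy Ly6c2. Tie1, a receptor of the angiopoietin system, differed by 0.30 ± 0.09 (FDR = 0.0112), and Pecam1, a junction protein, by 0.38 ± 0.14 (FDR = 0.0322). Ly6a and Tie1 were higher in cortex in 7 of 7 mice, and Ly6c1 and Pecam1 in 6 of 7. In WT libraries alone Tie1 differed by 0.05 and Pecam1 by 0.01, and in CD libraries alone by 0.55 (FDR = 0.00587) and 0.75 (FDR = 0.00594). With mouse as a block, Pecam1 had an FDR of 0.0822.

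Against hippocampus, cerebellum also had higher Ly6c1, by 0.21 ± 0.07 (FDR = 0.0187), in 6 of 6 mice. Tie1 was higher by 0.22 ± 0.09 (FDR = 0.0481), but the difference was -0.04 in WT libraries alone (FDR = 0.842) and 0.47 in CD libraries alone (FDR = 0.0122). The call was also lost with mouse as a block (FDR = 0.0743), with DESeq2 (FDR = 0.0628) and with the size factors of DESeq2 in edgeR (FDR = 0.0579). Against cortex, Emcn, a sialomucin of veins and capillaries, was higher in cerebellum by 0.64 ± 0.26 (FDR = 0.0382). Emcn was at most 4.40 cpm in hippocampus and 4.14 cpm in cortex, so it entered the test only through the cerebellum. In WT libraries alone it had an FDR of 0.0916, and 14 of 22 fits without 1 library kept the call. Flt1, a VEGF receptor, was lower in cerebellum than in cortex by 0.43 ± 0.16 on the log2 scale (FDR = 0.0272). Flt1 lost this call with mouse as a block (FDR = 0.0652), and it differed by -0.11 in WT libraries alone (FDR = 0.697) and -0.74 in CD libraries alone (FDR = 0.0178). Cdh5, the cadherin of endothelial junctions, Tek, the receptor of angiopoietins, the membrane protein gene Itm2a and the clotting factor gene Vwf had FDR values of 0.301 to 0.97 in the 3 pairs of regions. Of the 12 endothelial members tested, 11 had a positive fold change in cortex over hippocampus, with a median of 0.22, and 10 a negative one in cerebellum against cortex, with a median of -0.10.

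The endothelial members below 5 cpm were low in each region. Cldn5 had 1.72 to 3.94 cpm in hippocampus, 2.40 to 4.38 in cortex and 1.43 to 3.16 in cerebellum. Kdr had 0.852 to 3.61, 0.4998 to 3.05 and 0.607 to 3.05 cpm in that order, and Abcb1a had 0.426 to 2.51, 0.749 to 2.78 and 0.339 to 1.30 cpm. Eng had 1.52 to 3.65, 2.45 to 4.87 and 1.97 to 3.87 cpm. The ranges of the 3 regions overlapped for each of the 4 genes.

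Acta2 was the mural gene past the thresholds. It had 39.3, 41.3 and 72.2 cpm (lowest, median, highest) in hippocampus, 30.8, 39.2 and 77.6 cpm in cortex, and 16.8, 21.0 and 28.7 cpm in cerebellum, where every library lay below all others. The log2 fold change was -1.16 ± 0.17 against hippocampus (0.45-fold, FDR = 1.3e-06) and -1.08 ± 0.16 against cortex (0.47-fold, FDR = 2.78e-06). In WT libraries alone it was -1.65 and -1.52, past the thresholds. In CD libraries alone it was -0.67 (FDR = 0.000371) and -0.64 (FDR = 0.000545), short of the 2-fold limit.

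Myh11, smooth muscle myosin, differed by -0.44 ± 0.24 from hippocampus (FDR = 0.115) and -0.26 ± 0.24 from cortex (FDR = 0.353). Tagln, an actin-binding protein below the filter and therefore not tested between regions, had 0.590 to 2.75 cpm in hippocampus, 0.436 to 3.22 cpm in cortex and at most 1.497 cpm in cerebellum, and was lower in cerebellum than in hippocampus in 5 of 6 mice and than in cortex in 6 of 7. Acta2 and Myh11 were at their highest in the same 4 WT libraries. These were the cortices of mouse m244 (77.6 and 32.6 cpm) and mouse m162 (70.2 and 20.9 cpm), and the hippocampi of mouse m240 (72.2 and 21.0 cpm) and mouse m244 (63.6 and 25.1 cpm). In the other 18 libraries Acta2 was at most 49.0 cpm and Myh11 at most 15.3 cpm.

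**Figure D3:**
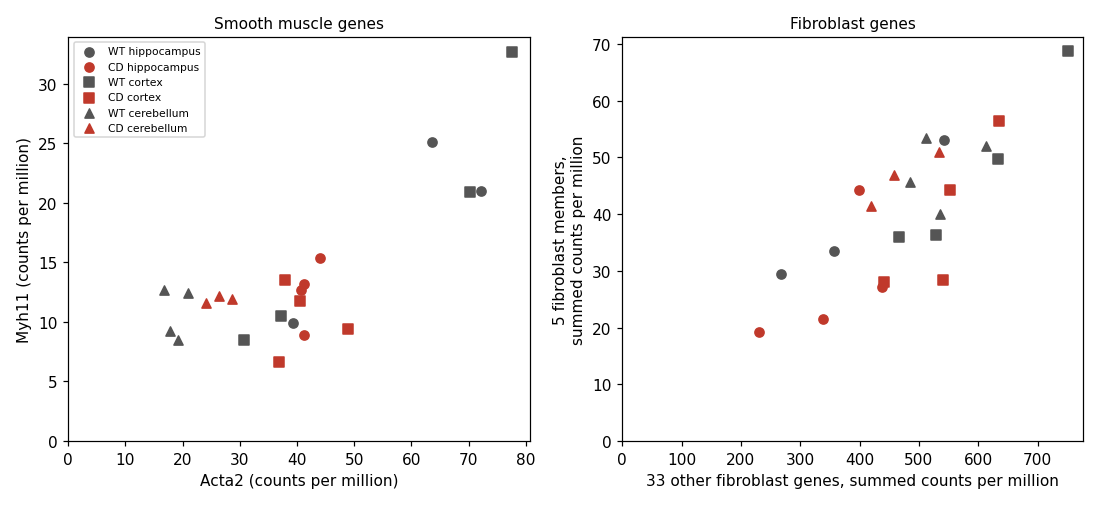
Left, Acta2 (x axis) against Myh11 (y axis) in cpm, where 4 wild-type libraries stand apart at the upper right. Right, the summed cpm of 33 other fibroblast genes (x axis, Ptgds left out) against the sum of the 5 fibroblast members (y axis). Each point is 1 of 22 libraries, grey for wild-type and red for CD, with circles for hippocampus, squares for cortex and triangles for cerebellum.

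Among the genes of pericytes, Rgs5, a regulator of G protein signalling, differed by 0.06 to 0.13 on the log2 scale in the 3 pairs of regions, and Abcc9, a potassium channel subunit, by 0.08 to 0.20, with FDR values of 0.343 to 0.841 for the pair. Vtn, vitronectin, was higher in cortex than in hippocampus by 0.40 ± 0.12 (FDR = 0.0127), in 7 of 7 mice, and in cerebellum by 0.32 ± 0.13 (FDR = 0.0309), in 6 of 6. Its ranges overlapped at 83.0 to 127 cpm in hippocampus, 100 to 181 cpm in cortex and 99.9 to 137 cpm in cerebellum. For Vtn, cortex against hippocampus had an FDR of 0.0766 in WT and 0.0925 in CD libraries alone. The call in cerebellum against hippocampus was lost in CD libraries alone (FDR = 0.257) and kept in 15 of 22 fits without 1 library. Notch3, the Notch receptor of mural cells, was higher in cerebellum than in cortex by 0.38 ± 0.15 (FDR = 0.0311), in 7 of 7 mice. Notch3 differed by 0.49 in WT (FDR = 0.0974) and 0.28 in CD libraries alone (FDR = 0.241). The call was kept in 16 of 22 fits without 1 library. An antisense gene, Gm17276, overlaps Notch3 over 21024 bases. Pdgfrb, below the filter, had 1.99 to 3.84, 1.99 to 4.79 and 1.87 to 4.09 cpm in hippocampus, cortex and cerebellum.

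Of the 5 fibroblast genes, 2 were higher and 1 lower in cortex than in hippocampus at an FDR below 0.05, against 35.5% of all genes. In cerebellum 2 were higher than in hippocampus, against 61.4% of all genes. The median log2 fold change of the 5 genes was 0.65 in cortex and 0.58 in cerebellum, beside -0.01 and 0.02 over all genes. Col3a1, the type III collagen chain, had 0.506, 2.26 and 3.69 cpm in hippocampus, 0.749, 3.11 and 5.88 cpm in cortex and 3.19, 5.16 and 5.95 cpm in cerebellum. No hippocampus reached 5 cpm, so Col3a1 entered the tests through cortex and cerebellum. It was higher in cerebellum than in hippocampus in 6 of 6 mice by 1.17 ± 0.33 (2.25-fold, FDR = 0.004). With mouse as a block it was 1.06 (FDR = 0.0194), no longer past the thresholds, and in WT libraries alone 0.91 (FDR = 0.0545).

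Col1a2, a type I collagen chain, had 6.25, 7.34 and 20.6 cpm in hippocampus, 10.2, 14.9 and 23.2 cpm in cortex and 14, 17 and 22.2 cpm in cerebellum. The hippocampus of WT mouse m244, rich in choroid plexus RNA, held the value of 20.6 cpm, and the other 6 were at most 11.1 cpm. Col1a2 was higher than in hippocampus by 0.70 ± 0.22 in cortex (FDR = 0.0144) and 0.80 ± 0.22 in cerebellum (FDR = 0.00339). Without that library the differences were 1.02 (FDR = 0.000205) and 1.13 (FDR = 3.2e-05), the latter past the thresholds. Col1a1, its partner chain, was higher in cortex than in hippocampus by 0.65 ± 0.21 (FDR = 0.0169), and without the cortex of WT mouse m162, at 16.4 cpm, by 0.48 (FDR = 0.072). Col1a1 was lower in cerebellum than in cortex by 0.52 ± 0.21 on the log2 scale (FDR = 0.0352), a call lost with mouse as a block, and by 0.81 in WT and 0.23 in CD libraries alone (FDR = 0.0182 and 0.562).

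Lum, lumican, a proteoglycan that binds collagen fibrils, went the other way. It had 2.53, 5.91 and 8.56 cpm in hippocampus and 2.53, 3.99 and 4.90 cpm in cortex, where it stayed below the filter. Lum was lower in cortex than in hippocampus in 6 of 7 mice, by 0.69 ± 0.21 on the log2 scale (0.62-fold, FDR = 0.0121). The log2 fold change was -0.87 in WT libraries alone (FDR = 0.0359) and -0.51 in CD libraries alone (FDR = 0.268). Ogn, osteoglycin, a related proteoglycan, was higher in cerebellum than in hippocampus in 6 of 6 mice by 0.58 ± 0.28 (FDR = 0.0759). Ogn lies within Cenpp on the opposite strand.

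The 5 fibroblast genes followed choroid plexus RNA in part of the hippocampus libraries. Their summed level was 53.1 cpm in WT mouse m244 and 44.3 cpm in CD mouse m190, the libraries with the most choroid plexus RNA, and 19.2 to 33.4 cpm in the other 5. All 12 choroid plexus genes had counts in every hippocampus library. The summed choroid plexus level was 178 to 8651 cpm in WT and 158 to 4346 cpm in CD hippocampi, and at most 130 cpm in cortex and cerebellum. Of 10 choroid plexus genes tested, 9 were lower in cortex and 7 in cerebellum than in hippocampus past the thresholds. The part of this tissue in the fibroblast values was not tested.

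**Figure D4:**
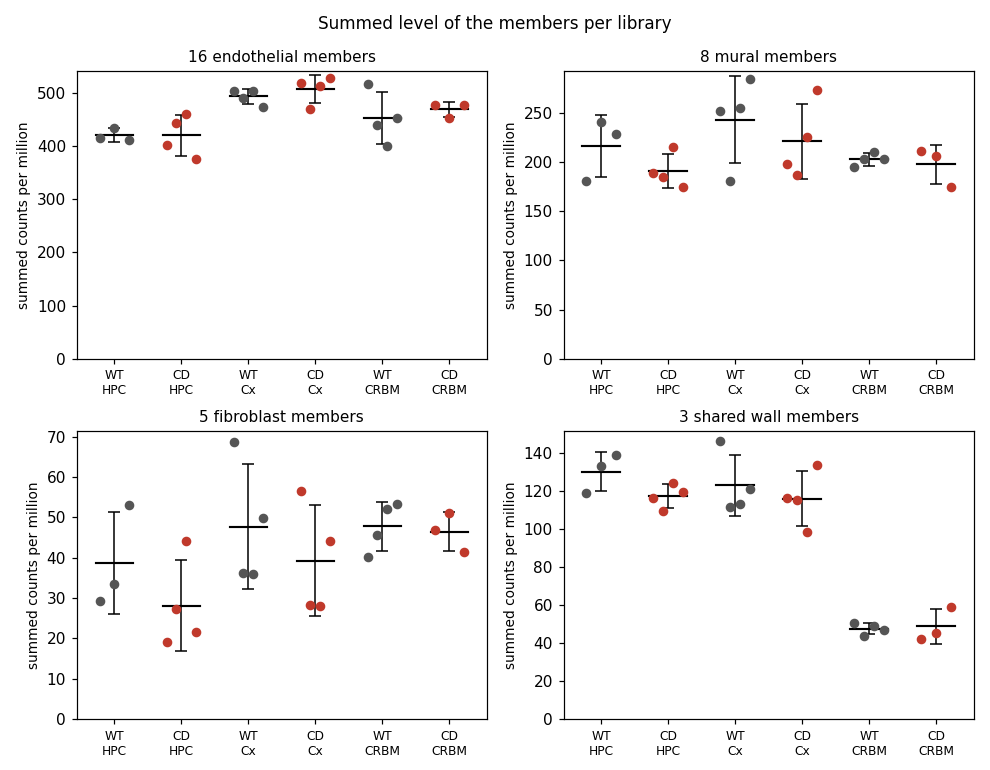
Summed cpm (y axes, from 0) of the 16 endothelial, 8 mural, 5 fibroblast and 3 shared members in each of 22 libraries, by genotype and region; points are libraries, wild-type grey and CD red, with mean and SD. The shared genes are 42.0 to 59.2 cpm in cerebellum and at least 98.5 cpm elsewhere, and the fibroblast sums spread most in hippocampus and cortex.

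Summed over its 16 genes, the endothelial level was 376 to 460 cpm in hippocampus, 469 to 529 cpm in cortex and 400.0 to 517 cpm in cerebellum. Cortex and hippocampus did not overlap. Mural sums were 175 to 241, 181 to 285 and 175 to 212 cpm in that order and overlapped throughout. In these sums the genes with the most counts, Ly6c1 and Vtn, weigh most. Other cell types moved between regions as well: 6 of 6 microglia genes were lower in cerebellum than in hippocampus and cortex past the thresholds, with sums of 72.7 to 92.3 cpm against 204 to 267 cpm. Of 6 genes of astrocyte end feet, 1 was higher and 1 lower past the thresholds in cerebellum than in hippocampus, 2 higher and 1 lower than in cortex, and 0 differed so between cortex and hippocampus. Of 5 ependymal genes tested, 5 were lower in cortex and 4 in cerebellum than in hippocampus, past the thresholds. Among 6 blood cell genes tested and 3 border macrophage genes tested, 0 passed them between regions. The part of these cells in the members' differences was not tested.

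Genes of the same cells and their signals that are not members were counted from lists made with the members. Of all genes, 22.8% passed the thresholds between cerebellum and hippocampus, 22.6% between cerebellum and cortex and 8.41% between cortex and hippocampus. Which cells of the bulk tissue made the RNA of a listed gene was not tested. Of 30 other endothelial genes tested, 2 were higher and 3 lower in cerebellum than in hippocampus past the thresholds, 2 higher and 2 lower than in cortex, and 1 was higher in cortex than in hippocampus. Cd34, a sialomucin of endothelium and progenitors, had 9.23 to 15.3 cpm in hippocampus, 30.7 to 49.7 cpm in cortex and 2.23 to 6.86 cpm in cerebellum, and the 3 regions did not overlap. It was lower in cerebellum by 1.17 ± 0.17 than in hippocampus (FDR = 2.07e-06) and by 2.94 ± 0.16 than in cortex (FDR = 3.49e-14), on the log2 scale. Plvap, the diaphragm protein of fenestrated vessels, had 8.85 to 14.9, 11.7 to 20.1 and 36.05 to 44.7 cpm in hippocampus, cortex and cerebellum. It was 3.34-fold higher in cerebellum than in hippocampus (log2 1.74 ± 0.12, FDR = 4.92e-12) and 2.50-fold higher than in cortex (FDR = 3.07e-10).

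The remaining named endothelial genes moved in both directions. Ackr1, a chemokine receptor of venules, was 2.70-fold higher and Mfsd2a, a lipid transporter of the barrier, 0.46-fold in cerebellum against hippocampus (FDR = 1.48e-09 and 3.53e-07). Against cortex, Ocln, occludin of tight junctions, was 2.25-fold and Slco1c1, a thyroid hormone transporter, 0.50-fold (FDR = 1.32e-07 and 3.44e-07). Of 9 other mural genes tested, Tpm2, tropomyosin, was 4.52-fold higher and Mylk, myosin light chain kinase, and Cspg4, the NG2 proteoglycan, 0.27-fold and 0.46-fold in cerebellum against hippocampus (FDR = 1.12e-09, 1.89e-09 and 0.000668). Against cortex Tpm2 was 2.61-fold and Mylk 0.41-fold (FDR = 6.08e-07 and 1.47e-06). Thus, of these contractile genes, Tpm2 went against the direction of Acta2 and Mylk went with it.

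Of 25 other fibroblast genes tested, 8 were higher and 0 lower in cerebellum than in hippocampus past the thresholds, against 22.8% of all genes. In cortex 7 were higher and 1 lower than in hippocampus, against 8.41%. Slc22a6, an organic anion transporter of the meninges, was 4.29-fold higher in cortex and 3.27-fold higher in cerebellum than in hippocampus (FDR = 2.38e-08 and 3.65e-07). Col6a2, a type VI collagen chain, was 3.07-fold higher in cortex than in hippocampus (FDR = 3.32e-09). Ptgds, prostaglandin D synthase, was 2.80-fold higher in cortex (FDR = 4.41e-07) and 3.12-fold in cerebellum (FDR = 4.49e-08), and made up 81.2% to 94.4% of the summed level of the list. Slc47a1, an exporter of organic cations, was 2.46-fold higher in cortex (FDR = 0.00142), and Vim, vimentin, and Crabp2, a retinoic acid carrier, were 2.82-fold and 2.71-fold higher in cerebellum than in hippocampus (FDR = 5.81e-10 and 6.74e-05). Between cerebellum and cortex 1 was higher and 4 lower: Vim was 4.02-fold higher, and Col6a1 (0.46-fold), Islr (0.47-fold) and Igfbp2 (0.47-fold) were lower (FDR = 2.57e-12, 5.5e-06, 0.00714 and 1.67e-05). Without Ptgds, the other 33 genes summed to 230 to 542 cpm in hippocampus, 442 to 751 cpm in cortex and 419 to 613 cpm in cerebellum.

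Vessels are guided by VEGF, TGF-beta, ephrin and Notch ligands, many of which neurons also make. Of 15 such ligands and receptors tested, 2 were higher and 5 lower in cerebellum than in hippocampus, 0 higher and 4 lower than in cortex, and 1 higher and 3 lower in cortex than in hippocampus, past the thresholds. Nrp1, a co-receptor of VEGF and semaphorins, had 59.8 to 82.5 cpm in hippocampus, 11.9 to 28.1 cpm in cortex and 3.16 to 9.48 cpm in cerebellum, without overlap. It was 0.08-fold in cerebellum and 0.27-fold in cortex against hippocampus and 0.31-fold in cerebellum against cortex (FDR = 2.68e-14, 1.3e-09 and 4.22e-08). Nrp2 and Tgfb2 were 0.13-fold and 0.20-fold in cerebellum (FDR = 5.28e-13 and 2.09e-14) and 0.24-fold and 0.15-fold in cortex (FDR = 3.16e-10 and 8.49e-15), against hippocampus. Jag2, a Notch ligand, was 0.40-fold in cerebellum against hippocampus and 0.33-fold against cortex (FDR = 1.83e-11 and 2.3e-13). Against cortex Pdgfa and Apln were 0.42-fold and 0.48-fold (FDR = 3.17e-09 and 3.18e-06), and Efnb2 was 2.23-fold higher in cortex than in hippocampus (FDR = 2.26e-06).

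Wnt7a, Wnt7b and Norrin signal to brain endothelium to form and keep the barrier. Of 14 genes of this pathway tested, 3 were higher and 3 lower in cerebellum than in hippocampus past the thresholds, 3 higher and 2 lower than in cortex, and 0 differed so between cortex and hippocampus. Wnt7a had 5.31 to 11.04 cpm in hippocampus, 3.40 to 9.41 cpm in cortex and 45.0 to 64.3 cpm in cerebellum, 5.86-fold and 9.72-fold higher there (FDR = 8.97e-14 and 1.14e-15). Wnt3 was 9.18-fold and 10.3-fold higher in cerebellum (FDR = 2.27e-08 and 8.66e-09). Wnt7b was 0.17-fold and 0.32-fold (FDR = 1.05e-09 and 1.88e-06), and the receptor gene Tnfrsf19 0.28-fold and 0.16-fold (FDR = 9.57e-07 and 8.21e-10), in the same order.

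Whether vessel genes differed between CD and WT mice was asked next, within each region. No member passed the thresholds or had an FDR below 0.05 in any region, over the regions together or in the test of genotype by region. The smallest FDR of a member was 0.997 in hippocampus, 1 in cortex, 0.981 in cerebellum, 1 over the regions (limma) and 0.999 for genotype by region. Members with an unadjusted p below 0.05 (edgeR) were 2 of 24 tested in hippocampus, 3 of 24 in cortex and 2 of 26 in cerebellum, where 4.22%, 3.30% and 4.56% of all genes were. Over the regions 2 of 26 were (3.58% of all genes) and for genotype by region 3 of 26 (3.91%). DESeq2 also called 0 members in each region. Over all genes, 0 passed the thresholds in any of these comparisons, and 0.0101% had an FDR below 0.05 in cortex and 0 elsewhere.

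**Figure D5:**
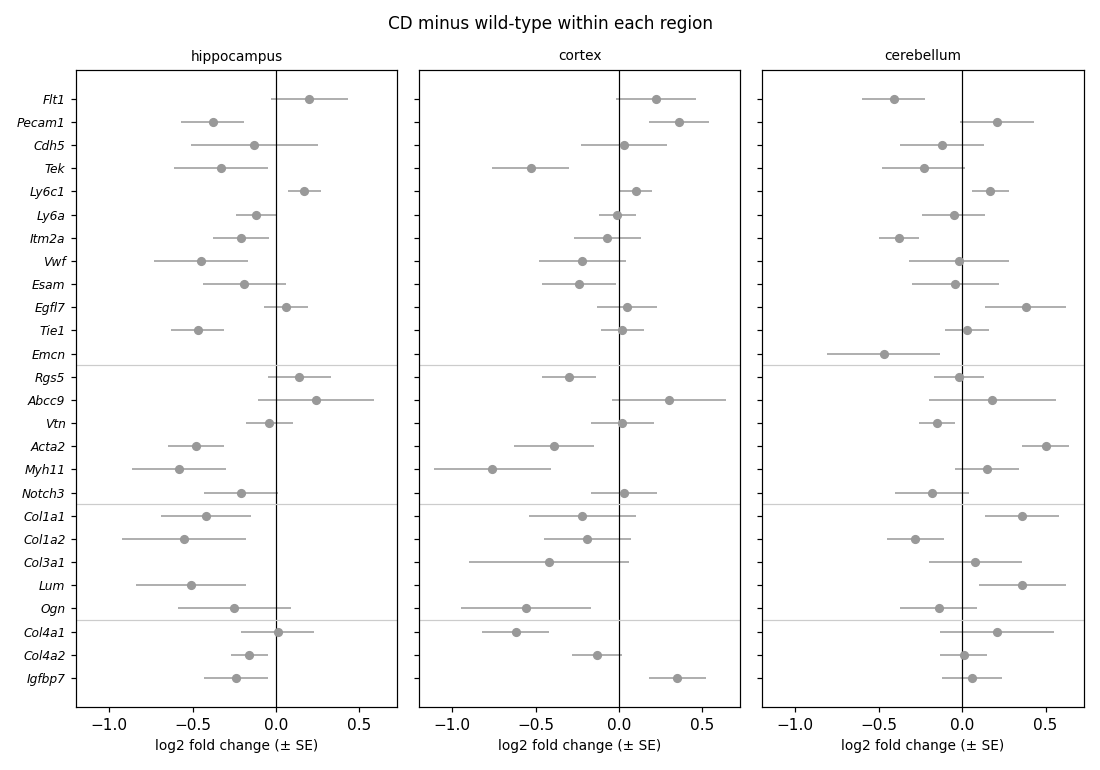
Log2 fold change of CD against wild-type (x axis, bars are standard errors) in hippocampus, cortex and cerebellum, one row per member, with lines between endothelial, mural, fibroblast and shared genes; members below the filter of a region have no point. All points are grey because none had an FDR below 0.05.

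In hippocampus, Tie1 had 26.8, 33.3 and 27.5 cpm in WT and 22.3, 22.7, 23.2 and 16.6 cpm in CD mice. The genotypes did not overlap, and the log2 fold change was -0.47 ± 0.16 (FDR = 0.997). Without mouse m118 it was -0.48 (FDR = 0.998). Tie1 was the 1 member of 24 without overlap in hippocampus, where 5.44% of all genes were. Acta2 had 39.3, 72.2 and 63.6 cpm in WT and 40.7, 41.3, 41.2 and 44.0 cpm in CD mice, a difference of -0.48 ± 0.17 (FDR = 0.997). One WT library lay below all CD libraries. Fold changes of the 4 fibroblast members tested were all negative, with a median of -0.46 beside -0.01 over all genes. In the same comparison 10 of 10 choroid plexus genes tested had negative fold changes, with a median of -0.78, and so did both border macrophage genes tested, with a median of -0.44. WT mouse m244 held the highest sums of both lists, 8651 and 68.9 cpm. By group median these 2 sums were higher in CD mice, at 941 against 313 cpm and 42.3 against 37.6 cpm. The median sum of the 5 fibroblast members was 24.4 cpm in CD and 33.4 cpm in WT mice. The part of these cells in the fibroblast values was not tested.

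In cortex, Col4a1 had 15.3, 9.88, 13.1 and 14.3 cpm in WT and 9.41, 8.84, 7.18 and 8.87 cpm in CD mice, again without overlap. Its log2 fold change was -0.62 ± 0.20 (FDR = 1). It was the 1 member of 24 without overlap, where 2.55% of all genes were. Its partner Col4a2 had 113, 83.2, 84.1 and 89.2 cpm in WT and 82.1, 90.8, 65.3 and 101 cpm in CD cortices, which overlapped. Tek and Myh11 had log2 fold changes of -0.53 ± 0.23 and -0.76 ± 0.35 (FDR = 1 for both), and were with Col4a1 the 3 members with an unadjusted p below 0.05. Without the cortex of WT mouse m244, which had the highest Myh11 at 32.6 cpm, Myh11 differed by -0.38.

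In cerebellum, Acta2 was at 19.1, 17.8, 21.0 and 16.8 cpm in WT and 28.7, 26.3 and 24.1 cpm in CD mice, higher in CD mice without overlap (0.50 ± 0.14, FDR = 0.981). Its difference thus had the opposite sign to that in hippocampus. Acta2, Tie1 and Pecam1 were the 3 members with an unadjusted p below 0.05 in the test of genotype by region, and all had an FDR of 0.999. Itm2a had 28.1, 29.3, 29.4 and 33.05 cpm in WT and 22.5, 21.4 and 24.6 cpm in CD mice (-0.38 ± 0.12, FDR = 0.981). Of 26 members tested, 4 did not overlap, Flt1 and Itm2a being lower and Acta2 and Col1a1 higher in CD mice, where 5.32% of all genes did not.

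Members below the filter of a region were compared by a two-sided exact permutation test, 22 tests in all. In cerebellum Cldn5 had 2.73, 2.44, 3.16 and 2.54 cpm in WT and 1.43, 1.66 and 2.00 cpm in CD mice, and Eng had 1.97, 2.79, 2.04 and 2.37 cpm in WT and 3.28, 3.87 and 3.49 cpm in CD mice. Neither overlapped. Both had an exact permutation p of 0.0571, the smallest that 4 against 3 allows, and an adjusted p of 0.629. The other 20 tests had an exact permutation p of 0.2 to 1.

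Over the regions together, 21 of 26 members had a negative CD against WT fold change, with a median of -0.11 beside -0.00 over all genes. The 30 other endothelial genes had 19 positive and 11 negative fold changes (median 0.03), and of the 25 other fibroblast genes 22 were negative (median -0.21). Negative ones were 6 of 9 other mural genes (median -0.11), 3 of 15 angiogenic genes (median 0.05) and 6 of 14 Wnt and Norrin genes (median 0.05). The share of negative fold changes over all genes was not counted, and these signs were not tested. The 2 members with an unadjusted p below 0.05 were Tek at -0.33 ± 0.15 and Ly6c1 at 0.15 ± 0.06 (FDR = 1 for both). Among the other lists, members with a p below 0.05 over the regions (limma) were 4 of 30 endothelial, 0 of 9 mural, 2 of 25 fibroblast, 0 of 15 angiogenic and 2 of 14 Wnt and Norrin genes. None had an FDR below 0.05.

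The spread between libraries of a group differed between the classes. The biological coefficient of variation was 14.6% at the median of all genes tested, with quartiles of 11.6% and 19.5%. It was 16.7% for endothelial, 18.6% for mural, 27% for fibroblast and 15.4% for shared members at their medians. Ly6c1 (9.86%) and Tie1 (10.3%) varied least, and Col3a1 (36.1%), Ogn (34.4%) and Myh11 (29.6%) most.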

How the data were processed

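RNA of 3 brain regions of 8 mice was extracted (RNeasy with DNase) and 30 ng made into CelSeq2 3′ libraries, 22 in all. Raw counts per RefSeq transcript were deposited by the authors, neither scaled nor pooled. They come from STAR alignments to mm10 and the counter ESAT (End Sequence Analysis Toolkit). Tool versions, strand use and the collapsing of molecular identifiers are not given in the sources used here. Reads were not assumed to be separate molecules, so the floor of 3 counts covers counting error only.

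Of 85964 transcripts, 69288 (81.4% of counts) were matched to 23037 genes by RefSeq identifier without version (GRCm38.p6), and 16676 without a symbol were left out. Where a gene had several transcripts, the one with the most counts over all libraries was kept. Per library 2760846 to 8858940 counts remained.

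Regions were compared with edgeR 4.0.16 (R 4.3.3) by the quasi-likelihood test on 6 group means, with TMM and a filter of 5 cpm in at least 2 libraries. CD and WT mice were compared in the same way within a region, over the regions with limma 3.58.1 (voom, with libraries of 1 mouse as a random block and a consensus correlation of 0.0295), and by an F test of genotype by region. FDR is by Benjamini-Hochberg over all genes tested. Log2 values of members below the filter were taken after adding 0.5 cpm and compared by exact permutation (SciPy 1.17.1, Python 3.11.15). Cpm values and sums were scaled by TMM over all libraries. The statistics were tested on simulated data. Regions of 1 mouse carry the same number in the labels because they come from the same animal, and are therefore paired. WT and CD mice are different animals, so genotypes could not be paired. That libraries of a group come from separate mice is taken from those numbers. The paper's legend gives 1 library fewer per group without naming it, and all were used.

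The members and all lists were chosen with earlier results of these data known. Named beyond the members were Tulp4 and, from each other list, at most 4 genes past the thresholds per comparison by absolute fold change; choroid plexus, blood, border macrophage, microglia, ependymal, end-foot and region genes are given as counts or sums. Cd34 levels and other single values of named genes follow the same rule. Alternatives were the size factors of DESeq2 1.42.0, DESeq2 itself, no filter, the filter over all libraries, sums of distinct transcripts, mouse as a block, 1 genotype only, and each library left out in turn.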

Additional observations from a re-analysis of the deposited data

Results flagged for a closer look

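In groups of 4 libraries, the highest or lowest value of a member was set against the other 3 by Dixon's ratio, the gap to the nearest value over the whole range. Of 128 such groups 7 exceeded the 95% limit, where chance gives about 1 in 20, that is 6.4. In CD hippocampi, mouse m242 had 3.55 cpm of Vwf against 6.32 to 6.49 cpm in the other 3, 16.6 cpm of Tie1 against 22.3 to 23.2 cpm, and 44 cpm of Acta2 against 40.7 to 41.3 cpm. Also in CD hippocampi, mouse m118 had 3.54 cpm of Esam against 6.96 to 7.38 cpm. In WT cortices, mouse m240 had 35.1 cpm of Tie1 against 28.3 to 29.2 cpm, and mouse m164 had 3.22 cpm of Tagln against 0.436 to 0.796 cpm. In WT cerebella, mouse m240 had 4.09 cpm of Pdgfrb against 2.09 to 2.37 cpm. By mouse, 3 of the 7 values were of mouse m242, 2 of mouse m240, and 1 each of mice m118 and m164. Tagln and Pdgfrb are below the filter of 5 cpm. No member's difference between genotypes differed between regions after adjustment.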

How the results depend on the processing

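Members past the thresholds between cerebellum and hippocampus were 4 with all libraries, 2 with CD libraries only and 4 to 5 without each library in turn. Between cerebellum and cortex they were 3, and 2 to 3 without each library. Between cortex and hippocampus they were 0, and 0 to 1 without each library, the 1 being Col1a2 without the hippocampus of WT mouse m244. At an FDR below 0.05, cortex against hippocampus gave 10 members with all libraries, 2 in WT and 5 in CD libraries only, and 7 to 12 without each library. Cerebellum against hippocampus gave 9, and 7 to 11 without each library. Cerebellum against cortex gave 8 members, 5 in WT and 4 in CD libraries only, and 5 to 8 without each library, 5 being reached without the cortex of CD mouse m118, WT mouse m162 or CD mouse m190. Tie1 in cerebellum against hippocampus was 0.22 with all and -0.04 with WT libraries only. The genotype-only fits have fewer samples. Over 36 single values of members, 829 of 920 alternative values kept direction and side of the threshold, 90 kept the direction and lost the call, and 1 reversed. These values include genotype differences that were never called, where a kept side means only that they stayed uncalled. Some fits also left out a library from outside the regions compared. Col4a2, Egfl7 and Acta2 kept an FDR below 0.05 in both comparisons of the cerebellum under each alternative run.

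With mouse as a replicate block, Col3a1 in cerebellum against hippocampus was 1.06 (FDR = 0.0194) and left the thresholds, so that 3 members passed there. The block also took Pecam1 (cortex against hippocampus), Tie1 (cerebellum against hippocampus), Col1a1 and Flt1 (cerebellum against cortex) above an FDR of 0.05, and changed no other call of a member. Between genotypes, 0 members were called under each alternative run, DESeq2 and each library left out included. For the 6 members with 136 to 411 counts in all, depth limits what could be seen.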
